A study of Homo sapiens with 4 samples.

Results

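The HOX cluster genes are the transcription factor genes of the HOXA, HOXB, HOXC and HOXD clusters. They were taken as every probe, control spots aside, whose gene name on the array is HOXA, HOXB, HOXC or HOXD followed by a number. This rule found 44 probes for 39 genes, among 34127 probes and 25992 gene names in all: 11 genes of HOXA, 10 of HOXB, 9 of HOXC and 9 of HOXD. Each probe was read from 1 spot except that of HOXD1, which was read from 10 spots. The rule uses gene names alone and no measured value.

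Gene expression was measured in human proximal tubular cells (HPTCs) of the kidney, in a study of empagliflozin (Empa), an inhibitor of the glucose transporter SGLT2, in cells under inflammatory stimulation. Each line has 2 arrays, described as biological duplicates, which are called H1 and H2 for the arrays labelled HK-2 and R1 and R2 for those labelled RPTEC/TERT1, the digit being the replicate number of the label. All cells went 24 h without serum or supplements and next received IL-1β (10 ng/mL), an inflammatory cytokine, together with Empa (500 nM) for 24 h. Arrays of control cells and of cells under IL-1β without Empa were not analysed here. Therefore no effect of IL-1β or Empa on a HOX gene was measured and the comparison is between the labelled lines. HK-2 is an HPTC line immortalised with the papillomavirus genes E6 and E7 and was grown in serum-containing keratinocyte medium. RPTEC/TERT1 is an HPTC line immortalised by telomerase (TERT) and was grown in a defined medium with insulin and hydrocortisone. Both lines were kept at a normal glucose concentration, and as immortalised cultures they are limited models of the tubule.

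HOX proteins carry the homeodomain, a helical fold that binds DNA, and they bind together with TALE cofactors of the PBX, MEIS and PKNOX families. Genes lie in each cluster in the order in which they are expressed from head to tail of the embryo, so that a low position number marks an anterior gene and a high number a posterior gene. Adult cells keep much of the HOX pattern of the body region they derive from. Kidney cells descend from intermediate mesoderm of the trunk, where HOX genes of group 11 pattern the early kidney, and Polycomb proteins hold unused HOX genes silent.

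HOX genes are a family of close relatives, so the likeness of their probes bears on every value that follows. As examples, 3 probes that read into the homeobox are shown, because relatives are most alike there. Over the 941 pairs of HOX probes of different genes, the longest run of bases that a pair shared had a median length of 6 of the 60 bases of a probe. A run of at least 10 bases was shared by 11 pairs, and the longest run of any pair was 13 bases. Probes were compared with each other and not with the transcripts of other HOX genes. Whether a probe also reads a relative was therefore not tested. The probe of HOXC10 lies at chr12:54383100-54383159 on the plus strand, the second probe of HOXB2 at chr17:46620897-46620956 on the minus strand and the second probe of HOXD9 at chr2:176988842-176988901 on the plus strand (GRCh37). They are written 5′ to 3′ as the array design gives them. Capitals mark the longest run that the HOXC10 and HOXB2 probes share with each other and that the HOXD9 probe shares with the HOXB2 probe, 10 bases in each case.
HOXC10: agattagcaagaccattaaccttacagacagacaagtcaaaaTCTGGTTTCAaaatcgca
HOXB2: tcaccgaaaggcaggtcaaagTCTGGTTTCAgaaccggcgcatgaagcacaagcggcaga
HOXD9: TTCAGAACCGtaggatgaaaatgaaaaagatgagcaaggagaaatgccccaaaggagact

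Before the HOX genes are described, the arrays themselves need a word, because they fell into pairs that cross the labels. H1 (labelled HK-2) was most like R2 (labelled RPTEC/TERT1), and H2 was most like R1. Over the 33597 probes with a value on every array, the median absolute difference on the log2 scale was 0.11 within the first of these pairs and 0.15 within the second. It was 0.32 for H1 against H2 and 0.38 for R1 against R2, the pairs that share a label. With normexp background correction or the deposited log2 values H1 stood apart from all other arrays by this measure (2.11 and 1.37 from R2), while across probes it correlated best with R2 under both (Pearson r of 0.871 and 0.956, against 0.782 and 0.874 with H2). Whether the labels of 2 arrays were exchanged was not tested, and such an exchange would change what every difference of HK-2 minus RPTEC/TERT1 means. The labels are kept as given, values are given array by array, and the crossed pairs were not averaged or tested as groups. Replicate number and scan date coincide, and each array was on its own slide. Of the 16 proximal tubule markers, 8 were well above background on all 4 arrays (among them LRP2, PAX8 and SLC5A2, the gene of SGLT2) and CUBN, HNF4A and SLC22A6 on none. The number detected was 12 on H1, 10 on H2, 8 on R1 and 12 on R2. The summed signal of these markers was 30.2 times the array's 75th percentile on H1, 6.47 on H2, 10.5 on R1 and 25.1 on R2. On every array PAX8 gave the largest part, at 4.13, 1.61, 2.79 and 3.73 on the log2 scale in that order. PAX2 and ANPEP were well above background on H1 and R2 and on neither of the others. LRP2 was highest on H2 (-1.72, against -3.34 on H1). Of the 16 marker probes in the test described below, 5 were at least 2-fold higher on H1 than on H2 (18.1% of all probes tested) and 1 lower (17.1%). On R2, 4 were higher than on R1 (22.7%) and 1 lower (19.1%). Of 5 fibroblast markers, COL1A2, COL3A1 and PDGFRB were well above background on no array, and the summed signal was 0.154 on H1, 3.64 on H2, 2.78 on R1 and 0.153 on R2. On H2 and R1 most of it came from DCN. On H1 and R2 neither DCN probe was well above background, and the sums there were made up of values at or near the floor. The part of these differences in the HOX values was not tested.

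Most HOX genes were expressed in these cells. A gene was counted as detected on an array where at least 1 of its probes was marked by the scanner software as well above background. On all 4 arrays 27 of the 39 HOX genes (69.2%) were detected, where the share over all gene names was 53%. The number per array was 28 on H1, 30 on H2, 29 on R1 and 27 on R2. In a bulk sample a low signal can come from few expressing cells or from little RNA per cell, which cannot be told apart.

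Detection was most complete among the central genes. Of the central genes (numbers 4 to 8), 13 of 15 were detected on all 4 arrays. The anterior genes (numbers 1 to 3) gave 6 of 8 and the posterior genes (numbers 9 to 13) gave 8 of 16. By cluster, 8 of 11 HOXA, 8 of 10 HOXB, 5 of 9 HOXC and 6 of 9 HOXD genes were detected on all 4. These shares are a description of 39 genes and were not tested against each other.

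There were 9 genes detected on no array (23.1%; 29.9% over all gene names). Among them were HOXB1, HOXC5 and the posterior genes HOXA11, HOXA13, HOXC11, HOXC12, HOXD12 and HOXD13. HOXA11, HOXC11 and HOXD11 form group 11, and of these HOXD11 alone was detected, on all 4 arrays. The genes HOXA13, HOXC13 and HOXD13 belong to the most posterior group, known for the limb tip and the urogenital outlet. HOXB13, the last gene of its cluster and known from the prostate and the hindgut, was detected on all 4 arrays.

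There were 3 genes that were detected on some arrays. HOXC13 was well above background on H2 and R1, at levels just above the floor that the scaling sets (-4.83 and -5.01 against a floor of -5.37). HOXD4 was marked on H2 although its signal there was at the floor, so its detection is at the limit. HOXB9 had no value on R2, where its spot was an outlier, and was detected on each of the other 3 arrays. For HOXB9 the count is therefore of 3 arrays measured.

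**Figure D1:**
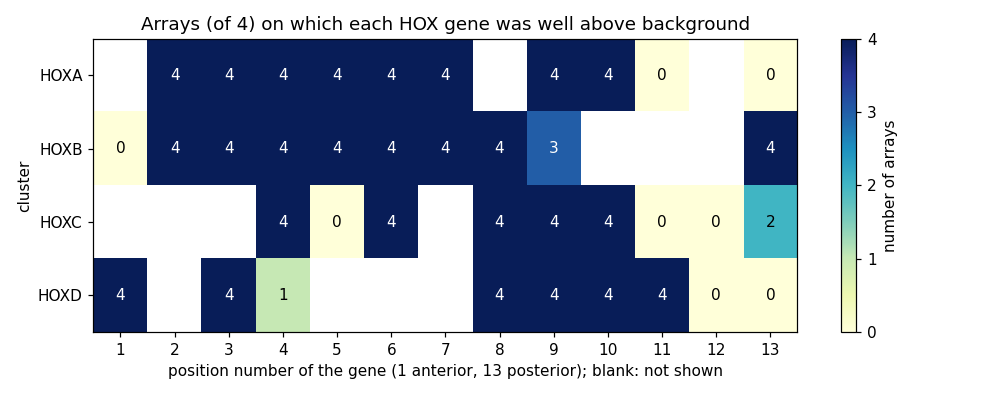
Number of arrays, of 4, on which each HOX gene shown was well above background, with clusters as rows and position numbers as columns. Blank cells are not shown. The central genes are filled almost throughout, HOXB9 has 3 because 1 spot is missing, and most zeros lie at positions 11, 12 and 13.

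Levels are given as log2 of the processed signal over the array's 75th percentile, so that 0 is the signal that 75% of spots lie below. Levels of a HOX probe were compared between arrays and not with those of other HOX probes. The marker sums above do add signals of different probes. Between the labelled lines, no HOX probe passed the test. Of the 44 HOX probes, 42 had values on all 4 arrays and 32 were also well above background on at least 2 of them, 29 of these on all 4. In the limma fit over 20806 probes, 0 of the 32 HOX probes were called at an adjusted p of 0.05, where 0% of all probes were called (0 of 20806). At an unadjusted p under 0.05 there were 0 HOX probes and 26 probes in all (0.125%). Arrays of a label lay further apart than the pairs across the labels, so this fit could hardly call any probe. A count of 0 here and for the gene lists below therefore does not show that the lines are alike. The difference of HK-2 minus RPTEC/TERT1 ran up to 0.69 on the log2 scale, in the second HOXD3 probe, with standard errors of 0.45 to 1.94 over the HOX probes. No HOX probe had both arrays of a line above both of the other, which over all probes held for 3.98% (HK-2 higher) and 2.87% (HK-2 lower).

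HOX levels were nevertheless far from even over the arrays. With the scaling used here, HOX probes differed more between arrays of the same label than probes in general. Over the 42 HOX probes the median absolute difference on the log2 scale was 0.66 between H1 and H2 and 1.20 between R1 and R2, against 0.32 and 0.38 over all probes. Across the labels it was 0.23 between H1 and R2 and 0.25 between H2 and R1. All probes include the dim ones that the fit leaves out. Over the 32 HOX probes in the fit the median was 1.175 between H1 and H2 and 1.57 between R1 and R2. Over all probes in the fit it was 0.69 and 0.83. On H1, 16 of the 42 HOX probes were at least 2-fold higher than on H2 (12.1% of all probes) and 2 were at least 2-fold lower (10.9%). On R2, 21 were at least 2-fold higher than on R1 (14.7%) and 2 were lower (12.4%). Each of these is 1 array against 1 array, without a replicate check. The excess of the HOX probes held between R1 and R2 under every scaling and background correction tried, but not between H1 and H2. With normexp background correction the median absolute difference between H1 and H2 was 1.95 for HOX probes and 2.51 for all probes, and with the deposited log2 values 1.60 and 1.80.

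The HOXD probes in the fit had the same arrays on top. HOXD1 (chr2:177055372-177055431), the most anterior gene of its cluster and a factor of early hindbrain patterning, had a level of -0.24 on H1 and -3.78 on H2. On R1 it was -4.15 and on R2 it was 0.16. The ranges of the labelled lines overlapped, with the high arrays being H1 and R2. The SD over the 10 spots of this probe within an array was 0.14, 0.093, 0.25 and 0.077 in the same order, which covers the spots of 1 array and not the spread between cultures. H1 was 11.6-fold above H2, and R2 was 19.7-fold above R1. By label the level of HOXD1 was -2.01 ± 2.50 (SD, n = 2 arrays) in HK-2 and -2.00 ± 3.04 (SD, n = 2 arrays) in RPTEC/TERT1, a difference of -0.02 with a standard error of 1.94 (limma adjusted p = 1).

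HOXD3 had probes at separate places. The first (chr2:177037727-177037786) gave 1.19 on H1, -1.46 on H2, -1.45 on R1 and 1.50 on R2. The second (chr2:177004062-177004121), designed on another transcript, gave -2.14, -4.08, the floor and -2.22 on the same arrays. Both probes were high on the same pair of arrays as HOXD1, and for both the labelled lines overlapped. For the second, R2 was at least 8.91-fold above R1, where the probe was not well above background.

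HOXD8 (chr2:176996109-176996168), a central gene expressed along the trunk, stood at -0.94 on H1 and at -2.96 on H2. It stood at -3.21 on R1 and at -0.39 on R2, again with the lines overlapping. The fold between arrays of a label was 4.04 for HK-2 and 7.07 for RPTEC/TERT1, with H1 and R2 as the higher arrays. The posterior genes HOXD9, HOXD10 and HOXD11 ranged by 1.28 to 1.93 on the log2 scale, with those arrays higher too. For all 8 HOXD probes in the fit, H1 and R2 were the highest 2 arrays. Over the 32 HOX probes in the fit this held for 24 (38.1% of all probes in it). H2 and R1 were highest for 4 (33.5%), H2 and R2 for 4 (11.4%), and H1 and R1 for 0 (9.93%). The HOXD4, HOXD12 and HOXD13 probes lay at or next to the floor on every array.

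**Figure D2:**
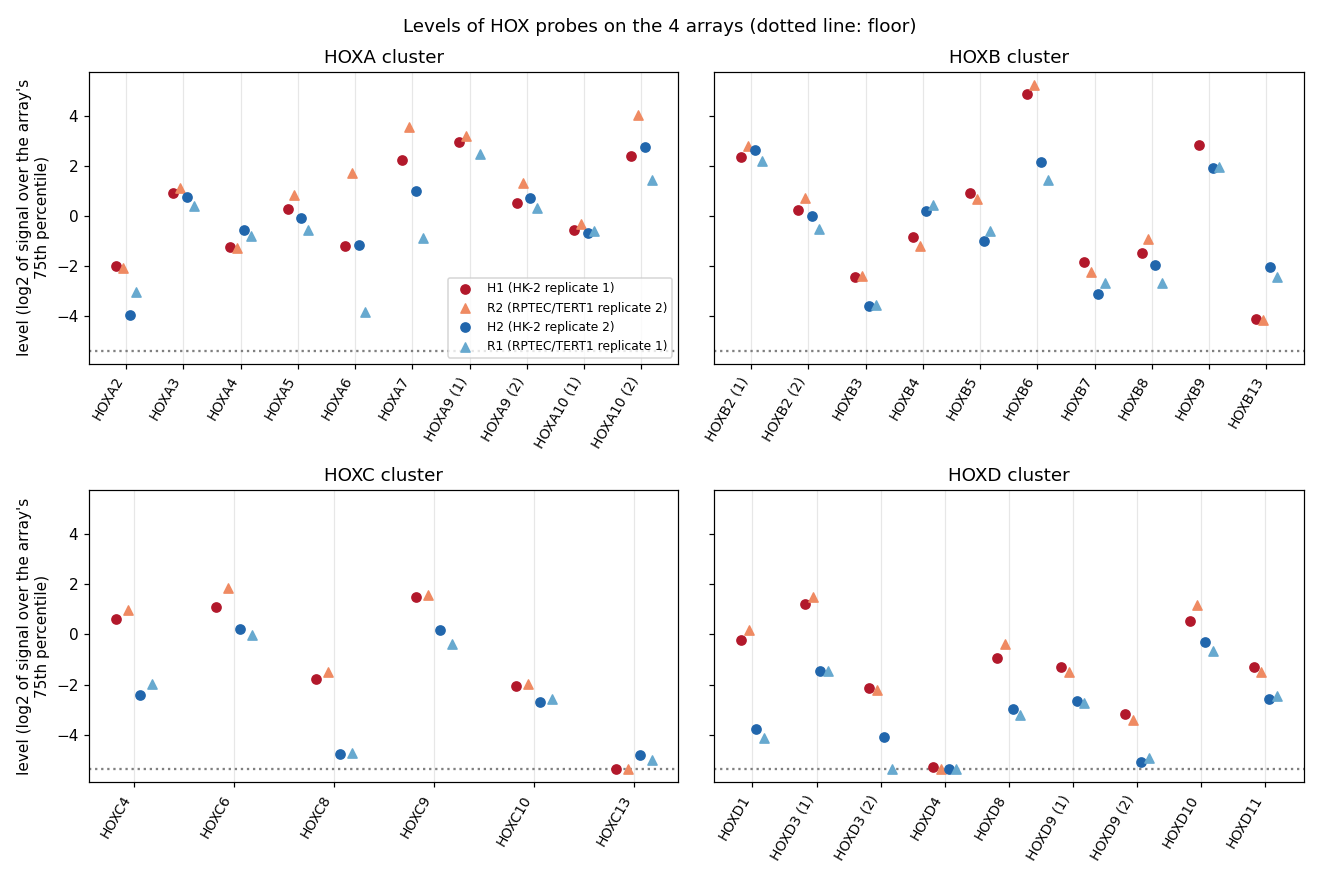
Level of each HOX probe well above background on at least 1 array (log2 of signal over the array's 75th percentile) on the 4 arrays, by cluster and in order of position; circles are HK-2, triangles RPTEC/TERT1, and numbers in brackets tell probes of a gene apart. The H1 and R2 points lie together above the other 2 arrays throughout HOXD apart from HOXD4, while HOXB4, HOXB13 and HOXA4 show the opposite order.

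Within HOXC, the widest ranges were those of HOXC4 and HOXC8. HOXC4 (chr12:54449755-54449814), known from lymphoid cells and the neck region, had levels of 0.60 on H1, -2.42 on H2, -2.00 on R1 and 0.95 on R2. HOXC8 (chr12:54406311-54406370), a gene of the thoracic trunk, had levels of -1.78, -4.78, -4.75 and -1.51 in the same order. In both genes the same 2 arrays were high and the labelled lines overlapped. H1 was above H2 by 8.12-fold for HOXC4 and 7.98-fold for HOXC8, and R2 was above R1 by 7.71-fold and 9.40-fold. HOXC6 and HOXC9 spanned 1.90 and 1.97 on the log2 scale, with H1 and R2 higher as well. HOXC10, whose homeobox probe is printed above, spanned 0.73, with -2.08, -2.69, -2.59 and -1.96 in the order used for HOXC8. It was among the least variable HOX genes.

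HOXB held members that went both ways. HOXB6 (chr17:46673193-46673252), a central gene of trunk mesoderm, had levels of 4.86 on H1, 2.14 on H2, 1.41 on R1 and 5.21 on R2. The fold within a label was 6.61 for HK-2 and 14.0 for RPTEC/TERT1, and the lines overlapped. HOXB13 (chr17:46802144-46802203) ran the other way, with -4.13, -2.06, -2.44 and -4.16 in the same order. H2 was 4.22-fold above H1 for HOXB13, and R1 was 3.30-fold above R2. HOXB4, a gene known from blood stem cells, had that order too, with a range of 1.63. HOXB13 and HOXB4 were the only HOX probes at least 2-fold higher on H2 than on H1, and with normexp background correction or with the deposited log2 values the HOXB13 difference within replicate 1 changed sign. HOXB3, HOXB5, HOXB7 and HOXB8 spanned 1.20 to 1.91, with H1 and R2 on top.

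HOXB2, a hindbrain gene, had a pair of probes. The first (chr17:46620127-46620186) was among the steadiest of all, at 2.33 on H1, 2.64 on H2, 2.17 on R1 and 2.78 on R2. The second, the homeobox probe, gave 0.23, -0.02, -0.51 and 0.72. The ranges were 0.61 and 1.22, and R2 was the highest array and R1 the lowest on both.

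Some HOXA probes had an order of arrays other than that of the HOXD probes. HOXA6 (chr7:27185116-27185175), a central trunk gene, gave -1.21 on H1 and -1.15 on H2, while R1 stood at -3.85 and R2 at 1.69. The HK-2 arrays thus lay between the RPTEC/TERT1 arrays, which were 46.5-fold apart. HOXA7 (chr7:27194431-27194490) gave 2.21, 1.00, -0.87 and 3.54 on H1, H2, R1 and R2, with R2 and H1 on top as for HOXD1. Its fold was 2.30 between the HK-2 arrays and 21.3 between the RPTEC/TERT1 arrays. HOXA10, which acts in the uterus and the posterior trunk, was read by probes that disagreed. The probe spanning chr7:27211789-27213023 gave 2.38, 2.73, 1.43 and 4.02, and the probe at chr7:27211235-27211294 gave -0.57, -0.68, -0.62 and -0.34. Their ranges were 2.59 and 0.35, the second being the smallest among HOX probes that were well above background on all 4 arrays.

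For HOXA6, HOXA7 and the first of these HOXA10 probes, R2 was the highest and R1 the lowest array, as on many other HOX probes. HOXA6, HOXA7 and that HOXA10 probe were the only HOX probes at least 2-fold apart between H1 and R2. There R2 was higher by 7.47-fold, 2.52-fold and 3.11-fold. Over all probes 2.54% were lower on H1 by that much and 2.06% higher. Between H2 and R1, HK-2 was higher by 6.48-fold, 3.66-fold and 2.47-fold for the same probes. The second HOXD3 probe, at least 2.45-fold, was the only other HOX probe of the 4 past 2-fold there, against 3.08% of all probes higher and 2.52% lower. HOXA3 and HOXA4 were among the steadiest genes. HOXA3 gave 0.90, 0.75, 0.37 and 1.13, and HOXA4 gave -1.26, -0.56, -0.79 and -1.29, on H1, H2, R1 and R2. HOXA2, HOXA5 and the HOXA9 probes spanned 0.71 to 1.96, and 1 of the HOXA9 probes had no value on H2.

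Comparing the lines within a replicate number, which holds the scan date the same, gave opposite answers in the 2 replicates. Within replicate 1, 19 of the 42 HOX probes were at least 2-fold higher on the array labelled HK-2 (13.3% of all probes) and 2 were lower (11.1%). Within replicate 2, 2 were higher (10.6%) and 20 were lower (11.9%). The 19 that were higher within replicate 1 were all lower within replicate 2 (9.26% of all probes behaved so), and HOXB4 and HOXB13 did the reverse (8.18%). Of the 19, 8 were HOXD probes out of 11, 4 HOXB out of 10, 4 HOXC out of 9 and 3 HOXA out of 12. For HOXD1 the array labelled HK-2 was 15.0-fold higher within replicate 1 and 15.4-fold lower within replicate 2. These comparisons rest on 1 array for each line.

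**Figure D3:**
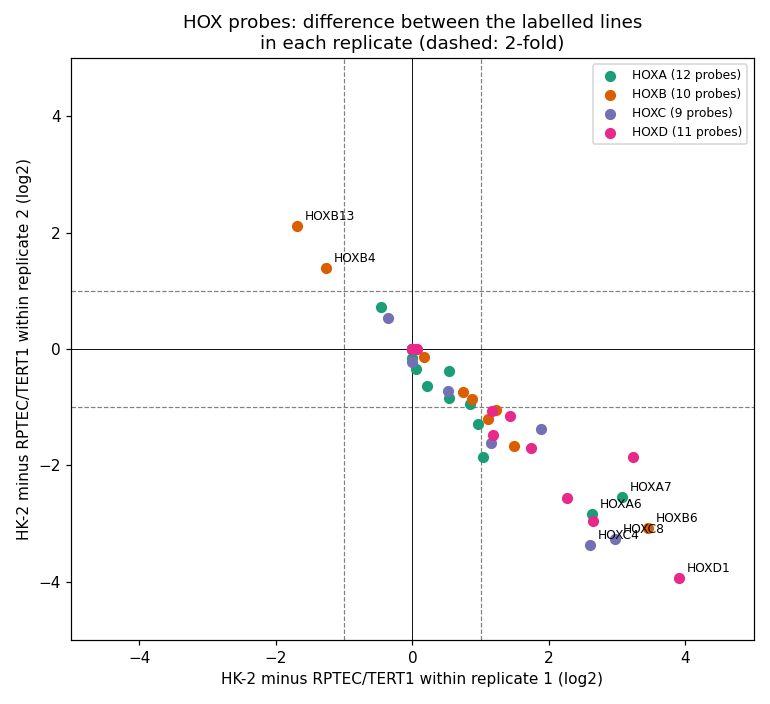
Difference of HK-2 minus RPTEC/TERT1 (log2) within replicate 1 (x axis) against that within replicate 2 (y axis) for the 42 HOX probes with values on all 4 arrays, coloured by cluster, with dashed lines at 2-fold. The points run from upper left to lower right: 19 probes lie past 2-fold at lower right and HOXB4 and HOXB13 at upper left.

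Promoters of HOX genes were read for CG dinucleotides and short motifs, over all windows on hand and not by how far the arrays lay apart. RefSeq windows (GRCh38.p14) of the 250 bases before the gene start were on hand for 26 starts of 20 HOX genes, 7 of them starts of HOXA3. The HOX windows held a median of 19.5 CG dinucleotides, against 11 over all 34943 windows. The letters CCAAT, on either strand, were in 65.4% of HOX windows and 32.0% of all windows, and the letters TATAAA, on either strand, in 19.2% and 10.8%. Such counts describe the letters and not a bound factor. The windows of HOXD1, HOXD8 and HOXC4 are printed as examples among the genes with wide gaps between arrays, 5′ to 3′ on the plus strand with each CG in capitals. They lie at chr2:176188418-176188667, chr2:176129455-176129704 and chr12:54016638-54016887 of GRCh38.p14.
HOXD1: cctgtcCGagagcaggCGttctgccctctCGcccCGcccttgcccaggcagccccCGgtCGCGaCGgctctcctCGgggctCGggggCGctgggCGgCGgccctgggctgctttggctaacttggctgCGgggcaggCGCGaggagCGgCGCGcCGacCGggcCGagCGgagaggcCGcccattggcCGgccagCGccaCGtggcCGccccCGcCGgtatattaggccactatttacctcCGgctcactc
HOXD8: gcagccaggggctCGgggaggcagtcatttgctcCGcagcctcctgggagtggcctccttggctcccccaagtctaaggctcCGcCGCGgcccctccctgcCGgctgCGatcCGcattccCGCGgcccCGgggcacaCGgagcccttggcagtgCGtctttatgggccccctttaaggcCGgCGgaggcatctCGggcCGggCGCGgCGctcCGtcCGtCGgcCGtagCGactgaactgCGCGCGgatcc
HOXC4: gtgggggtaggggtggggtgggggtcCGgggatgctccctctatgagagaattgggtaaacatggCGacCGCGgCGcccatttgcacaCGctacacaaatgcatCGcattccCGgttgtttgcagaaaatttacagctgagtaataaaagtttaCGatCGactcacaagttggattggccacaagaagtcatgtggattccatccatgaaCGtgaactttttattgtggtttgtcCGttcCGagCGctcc
The 3 windows hold 31, 28 and 14 CG, and CCAAT is in those of HOXD1 and HOXC4 but not in that of HOXD8. The HOXC4 window is listed under HOXC5 as well, and while the HOXC4 probe was well above background on all 4 arrays, the HOXC5 probe was so on none.

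HOX proteins act with TALE cofactors, and among these the family members differed between the same arrays. Of 9 TALE genes, 4 (PBX2, PBX3, PBX4 and PKNOX1) were well above background on all 4 arrays and PKNOX2 on none. In the limma fit 0 of their 9 tested probes were called, where 0% of all probes were. MEIS2 was at -4.54 on H1, -1.35 on H2, -1.51 on R1 and the floor on R2. MEIS3 was at the floor on H1, at -3.49 on H2, at -2.53 on R1 and at the floor on R2. Both were well above background on H2 and R1 alone. The wider-ranging PBX3 probe gave -3.01, -0.20, -1.37 and -1.06 on H1, H2, R1 and R2.

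All 19 Polycomb genes listed were well above background on all 4 arrays, and 0 of their 29 tested probes were called. EZH2, the enzyme that methylates lysine 27 of histone H3, was at -1.01 on H1, 2.32 on H2, 1.82 on R1 and -0.80 on R2. The HK-2 arrays were 10.1-fold apart and the RPTEC/TERT1 arrays 6.19-fold, in opposite directions by number, so the lines overlapped. CBX8 and CBX2, which read that mark, gave -2.86, -0.83, -0.41 and -3.29 and, on the wider-ranging CBX2 probe, -1.06, 1.18, 1.19 and -0.76 in the same order. RBBP4, a histone-binding subunit, gave -1.19, -0.08, 0.31 and -1.50 on the widest-ranging of its 4 probes. Each of these 4, named for their wide range, was higher on H2 and R1. Other Polycomb probes went the other way. The EZH1 probe and both BMI1 probes had H1 and R2 on top, with ranges of 0.74, 0.69 and 0.51. Of the 29 probes, 7 were at least 2-fold lower on H1 than on H2 (17.1% of all probes in the fit) and 0 were higher (18.1%). On R2, 8 of the 29 were lower than on R1 (19.1%) and 1 was higher (22.7%). Whether the Polycomb levels play a part in the HOX levels was not tested.

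Among the Trithorax genes and the H3K27 demethylases, which oppose Polycomb, 7 of the 8 on the array were well above background on all 4 arrays, and 0 of 13 tested probes were called. Of the 13 probes, 4 were at least 2-fold lower on H1 than on H2 (17.1% of all probes in the fit) and 0 were higher (18.1%). On R2, 3 were lower than on R1 (19.1%) and 0 were higher (22.7%). These counts are of few probes and were not tested against the shares over all probes. The widest ranges of a probe were those of PSIP1 (3.00), WDR5 (2.64), KDM6A (1.58) and RBBP5 (1.44). Of the regulators of HOX expression, CDX1, CTCF, RARA and RARG were well above background on all 4 arrays and CDX2 and RARB on none, with 0 of 5 tested probes called. RARA, a receptor for retinoic acid, was read by probes that disagreed. The wider-ranging one gave 0.06 on H1, -1.38 on H2, 2.33 on R1 and -0.88 on R2, and the other gave -0.77, -0.49, -0.50 and -0.76, a range of 0.28. CDX4 was well above background on R1 alone.

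**Figure D4:**
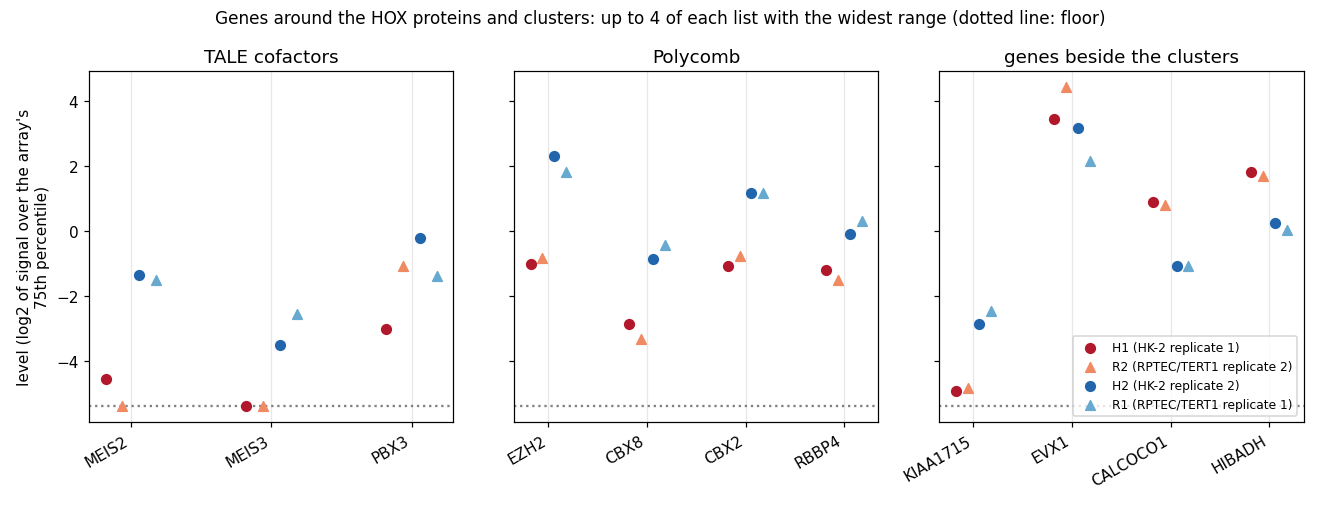
Levels (log2 of signal over the array's 75th percentile) on the 4 arrays of up to 4 genes with the widest range from the TALE cofactors, the Polycomb genes and the genes beside the HOX clusters, with the widest-ranging probe of each gene. EZH2, CBX8, CBX2, RBBP4, MEIS2, MEIS3 and KIAA1715 are higher on H2 and R1, and CALCOCO1 and HIBADH on the other 2 arrays.

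Genes beside the clusters were read as well. Of 13 such genes on the array, 10 were well above background on all 4 arrays, EVX2 and PRAC1 were so on none, and 0 of 13 tested probes were called. EVX1, which lies next to HOXA13, was at 3.44 on H1, 3.19 on H2, 2.16 on R1 and 4.45 on R2. R2 was the highest array and R1 the lowest, as on the HOXA6 and HOXA7 probes and the first HOXA10 probe. That order was common among HOX probes of every cluster, with HOXA3, HOXB6, HOXC9, HOXD1 and HOXD10 among them. HOXA11 and HOXA13, the HOXA genes nearest to EVX1, were not detected. EVX2, the counterpart beside HOXD13, was at the floor on every array, as HOXD12 and HOXD13 were. HIBADH, beyond EVX1, and CALCOCO1, near HOXC, were higher on H1 and R2, by 2.99-fold and 3.94-fold within HK-2 and by 3.15-fold and 3.64-fold within RPTEC/TERT1. KIAA1715, beside HOXD, was on its wider-ranging probe not well above background on those arrays and at least 4.16-fold higher on H2 than on H1. Its direction was opposite to that of the HOXD probes.

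Noncoding transcripts of the clusters were read by 7 probes of 5 genes, of which 4 probes were tested and 0 called. HOTAIR, transcribed from HOXC, and HOXB-AS3 were well above background on no array. HOXA11-AS, named for HOXA11, was at -1.65 on H1, -3.38 on H2, -3.94 on R1 and -1.21 on R2. It was thus detected on all 4 arrays where HOXA11 was detected on none, and H1 and R2 were its highest arrays. HOXA-AS3 was detected on all 4 arrays through 2 of its 3 probes, and on both of these H2 and R1 were the highest arrays. Its remaining probe was well above background on H1 and R2 alone. HOXA-AS2 was detected on R2 alone.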

How the data were processed

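Gene expression was read from 4 arrays of Agilent oligonucleotide probes (Human GE 4x44K v2) hybridised with Cy3-labelled cRNA. The spot intensities that the authors deposited come, per the file headers, from Agilent Feature Extraction 9.5.3.1, with background subtracted and no scaling between arrays. A series table holds log2 values that the authors deposited for the same spots; how they were made is not stated in the text read here, and their ranks followed the median spot signal minus local background. For RNA the methods name the innuPREP kit and the labels the RNeasy kit.

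Control spots and outlier spots were dropped. Each signal was divided by the array's 75th percentile (393, 748, 488 and 429 on H1, H2, R1 and R2), raised to 0.0242 of it where lower (the floor, a level of -5.37), and put on a log2 scale. This floor is the lowest scaled signal marked well above background on the array where that value is highest. Between 59.2% and 64.9% of spots were well above background, and no HOX probe was saturated. Spots of a probe were averaged. A fold against an array where the probe was not well above background is a bound, written as at least.

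The labelled lines were compared with limma 3.58.1 in R 4.3.3 (Benjamini-Hochberg, 0.05), a step tested on simulated data. The simulated arrays had a small independent spread and no pairs across the labels. That test therefore checks the calculation and not what the fit could detect in these arrays. Depth is not defined for arrays, and their number limits the precision. Deviations of same-numbered arrays from the label means correlated at -0.795 across probes, so the numbers were not taken as pairs. The fit was repeated with other scalings, background corrections and filters and without each array.

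HOX probes and lists (TALE, Polycomb, Trithorax, regulators, neighbours, noncoding transcripts, markers) were chosen with earlier results of these data known. By rule, every array's value is given for HOX genes ranging by at least 2 on the log2 scale and for the 5 steadiest detected on all 4 arrays, and up to 4 genes of widest range are named from each list. The markers of other cell types gave these numbers of genes detected on all 4 arrays: 5 of 6 for kidney epithelium, 3 of 3 for podocytes, 1 of 3 for the loop of Henle and distal tubule, 0 of 3 for the collecting duct, 1 of 4 for endothelium, 0 of 5 for fibroblasts and 3 of 4 for leukocytes. All 39 HOX names were in the RefSeq gene table (GRCh38.p14), as were 42 of 44 probe transcripts. Probe positions are those of the files (GRCh37), and exon or UTR positions were not used here. A few items are not reported here.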

Additional observations from a re-analysis of the deposited data

Results flagged for a closer look

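Of the 42 HOX probes with values on all 4 arrays, 21 differed at least 2-fold between the labelled lines within each replicate number. The direction was opposite in the 2 replicates. The array labelled HK-2 was higher within replicate 1 for 19 of them (9.26% of all probes) and lower for 2 (8.18%). The count of 21 was picked out because the sign of the difference turned between replicates. That turn was not tested, since each side rests on 1 array per line. The gap of HOXD1 was 15.0-fold within replicate 1 and 15.4-fold within replicate 2, and that of the second HOXD3 probe is known within replicate 1 as a bound, at least 9.41-fold.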

How the results depend on the processing

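Under every alternative run, 0 HOX probes, 0 probes of the listed genes and 0 of all probes were called by limma, also in each fit without 1 array. An unadjusted p under 0.05 was given to 5 to 298 of all probes and 0 to 2 HOX probes. With the replicate number as a block the count was 0 as well, and with crossed numbers as a block, an alternative chosen after seeing the data, it was 0 too. The sign of the uncalled HOX differences changed for 12 of 32 probes with normexp background correction, 7 with the deposited log2 values, 4 with median scaling and 2 with quantile normalization, and for 12 to 19 without 1 array. The median absolute difference of HOX probes between H1 and H2 (0.66) was 1.95 with normexp and 1.60 with the deposited values. It was 1.20 over HOX probes above the lower 40% by mean level, against 0.71 over all such probes. Between R1 and R2 the median of the HOX probes (1.20) was 0.70 with normexp and 0.70 with the deposited values. Over all tested probes, normexp set H1 higher than R1 by a median of 0.96 and the deposited values by 0.69, against 0.11 as reported. HOXB13 within replicate 1 (-1.69) reversed to 1.60 with normexp and 0.79 with the deposited values, and the cause was not tested. HOX probes past 2-fold numbered 19 to 29 within replicate 1 and 16 to 23 within replicate 2 over the alternatives. Arrays in pairs across the labels and 2 arrays per line limit every comparison of the lines.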
